A study of Mus musculus with 2 samples.

Results

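Epithelial to mesenchymal transition (EMT) genes were followed through gastrulation in mouse embryos at embryonic day 7 (E7), in control embryos and in embryos that lacked *Yap1* in the epiblast and its descendants. The genes were chosen by symbol: *Cdh1*, *Epcam*, *Cdh2*, *Cdh11*, *Vim*, *Fn1*, *Snai1*, *Zeb2* and *Twist1*. Each matched 1 row, so 9 of the 32285 genes in the count tables were taken. The *Yap1* cKO library was made from a pool of 3 Sox2cre:Yapflox/flox embryos and the control library from a pool of 4 Sox2cre:Yapflox/+ embryos, which the sample label calls WT. Both groups carried Cre driven by *Sox2*, a driver active in the epiblast, so that the extraembryonic tissues were not its target, and by this design controls were heterozygous rather than wild type in the epiblast lineage. Whole embryos were dissociated and measured by droplet single-cell RNA sequencing of 3′ ends, with 1 library per genotype. Embryos within a pool cannot be told apart and there was no replicate of either genotype, so no difference between genotypes was tested. Every interval given is an exact 95% interval for counting error only.

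In gastrulation, epiblast cells of a polarized epithelium move into the primitive streak, loosen their junctions and leave it as migratory mesoderm. *Snai1* encodes a zinc finger repressor that the streak requires to silence *Cdh1*, the gene of E-cadherin, while N-cadherin (*Cdh2*) appears in the emerging mesoderm. *Zeb2* and *Twist1* encode other transcription factors of the same program. *Epcam* encodes an epithelial adhesion protein, *Vim* an intermediate filament protein of mesenchyme, *Fn1* the matrix protein fibronectin that mesoderm cells lay down and move on, and *Cdh11* a cadherin of mesenchyme.

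Cells with at least 5000 detected genes were used, 791 in the control and 864 among *Yap1* cKO cells, with medians of 75715 and 80922 UMIs (unique molecular identifiers, each counting 1 captured mRNA). They were placed in populations by marker genes, none of which was an EMT gene followed here. The order used throughout ran from *Fgf8*-low epiblast-like cells (176 control and 109 *Yap1* cKO cells) through *Fgf8*-positive epiblast-like cells (81 and 158), streak-like cells holding *T* or *Mixl1* (20 and 21) and nascent mesoderm-like cells holding *Mesp1* or *Mesp2* (56 and 76) to mesoderm-like cells holding *Foxf1* or *Hand1* (63 and 57). Markers outside the gates followed the names: *Eomes*, *Evx1*, *Wnt3* and *Cdx1* were at least 1.5-fold higher in streak-like cells than in all other cells in both libraries, and *Tbx6*, *Lhx1*, *Lefty2*, *Dll1*, *Msgn1* and *Dll3* were so in nascent mesoderm-like cells. Of the 6 such markers of each epiblast-like population, all were so in *Fgf8*-low cells, and 3 (control) and 4 (*Yap1* cKO) in *Fgf8*-positive cells, whose name is thus the less secure. *Yap1* was at 29.5 CPM (UMIs per 1000000 UMIs of the population) in control and 0.866 CPM in *Yap1* cKO *Fgf8*-low epiblast-like cells, and its ratio of *Yap1* cKO to control lay at or under 0.0885 in all 5 populations of the order. In visceral endoderm-like cells, which the driver does not target, *Yap1* stood at 32.8 and 26.3 CPM. The labels call both pools female, but 51.7% of control and 15.5% of *Yap1* cKO cells held Y-linked UMIs and no *Xist*, so the sexes were mixed and unequally so. Values within Y-bearing and within *Xist*-bearing cells are given beside some of the ratios they changed.

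*Cdh1* and *Epcam*, the epithelial genes, had a lower level at each step of the order in both libraries. For *Cdh1*, the intervals of the epiblast-like populations overlapped in both libraries. In *Yap1* cKO those of *Fgf8*-positive epiblast-like (94.7 to 104 CPM) and streak-like cells (77.8 to 107 CPM) did so too. The control level of *Cdh1* was 130 CPM in *Fgf8*-low and 117 CPM in *Fgf8*-positive epiblast-like cells, 68.4 CPM in streak-like cells, 18.0 CPM in nascent mesoderm-like cells and 8.46 CPM in *Foxf1* and *Hand1* mesoderm-like cells. The corresponding *Yap1* cKO levels were 105, 99.4, 91.4, 31.0 and 17.9 CPM. With these gates the *Yap1* cKO library therefore began below the control in the epiblast and ended above it in mesoderm. Neither end was kept under every alternative. With embryonic gates at 200 in place of 100 CPM, the *Foxf1* and *Hand1* mesoderm-like ratio was 0.975. With *Pou5f1* at 100 in place of 25 CPM, the epiblast ratios were 0.945 and 0.939, and both intervals included 1. *Cdh1* was also below the control in visceral endoderm-like cells (ratio 0.773, 0.713 to 0.839) and extraembryonic ectoderm-like cells (0.843, 0.788 to 0.900). The driver does not target either of them, but *Yap1* itself was at 0.801 (0.683 to 0.940) and 0.729 (0.619 to 0.857) times the control there. The *Yap1* cKO streak-like level was 0.872 times its *Fgf8*-low epiblast-like level (0.734 to 1.03), against 0.527 (0.425 to 0.647) in the control.

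*Epcam* took the same course without reaching so low a level. In the control it went from 802 CPM in *Fgf8*-low epiblast-like cells and 711 CPM in *Fgf8*-positive ones to 482 CPM in streak-like, 202 CPM in nascent mesoderm-like and 123 CPM in *Foxf1* and *Hand1* mesoderm-like cells. In the *Yap1* cKO library the levels were 797, 698, 598, 276 and 151 CPM. *Epcam* UMIs were found in all 56 control nascent mesoderm-like cells, of which 44.6% held a *Cdh1* UMI, and in blood progenitor-like cells, of similar depth, the shares were 84.4% and 8.89%.

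Mesenchymal genes took the opposite course and rose at different places in the order. In the control, *Fn1* stood at 21.6 and 23.7 CPM in the 2 epiblast-like populations, 118 CPM in streak-like cells, 428 CPM in nascent mesoderm-like cells and 323 CPM in *Foxf1* and *Hand1* mesoderm-like cells. In the *Yap1* cKO library, *Fn1* was at 21.8, 24.4, 67.6, 339 and 353 CPM. *Cdh11* was nearly silent in the epiblast, at 1.62 and 4.79 CPM in the control and 1.83 and 3.58 CPM among *Yap1* cKO cells. It then stood at 43.5 and 19.9 CPM in streak-like cells, 143 and 114 CPM in nascent mesoderm-like cells and 166 and 131 CPM in *Foxf1* and *Hand1* mesoderm-like cells (control and *Yap1* cKO).

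*Vim* had its large step furthest along the order. In the control it was at 24.4, 28.9, 21.4 and 50.4 CPM from *Fgf8*-low epiblast-like to nascent mesoderm-like cells, and at 238 CPM in *Foxf1* and *Hand1* mesoderm-like cells, 4.71 times (4.08 to 5.47) the nascent level. The *Yap1* cKO levels were 29.7, 27.3, 52.8, 45.7 and 174 CPM. The large step of *Vim* therefore came after the step of *Fn1*, *Cdh2* and *Cdh11* in both libraries.

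*Cdh2* marks the cadherin exchange. It was at 17.9 CPM in control *Fgf8*-low epiblast-like cells, 36.2 CPM in *Fgf8*-positive ones, 106 CPM in streak-like, 251 CPM in nascent mesoderm-like and 220 CPM in *Foxf1* and *Hand1* mesoderm-like cells. In the *Yap1* cKO library it was at 28.1, 30.9, 59.1, 201 and 209 CPM. *Cdh2* and *Zeb2* were already 2.03-fold (1.70 to 2.42) and 2.79-fold (2.31 to 3.36) higher in *Fgf8*-positive than in *Fgf8*-low epiblast-like cells of the control, and 1.10-fold (0.953 to 1.28) and 1.65-fold (1.41 to 1.93) in *Yap1* cKO cells.

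**Figure D1:**
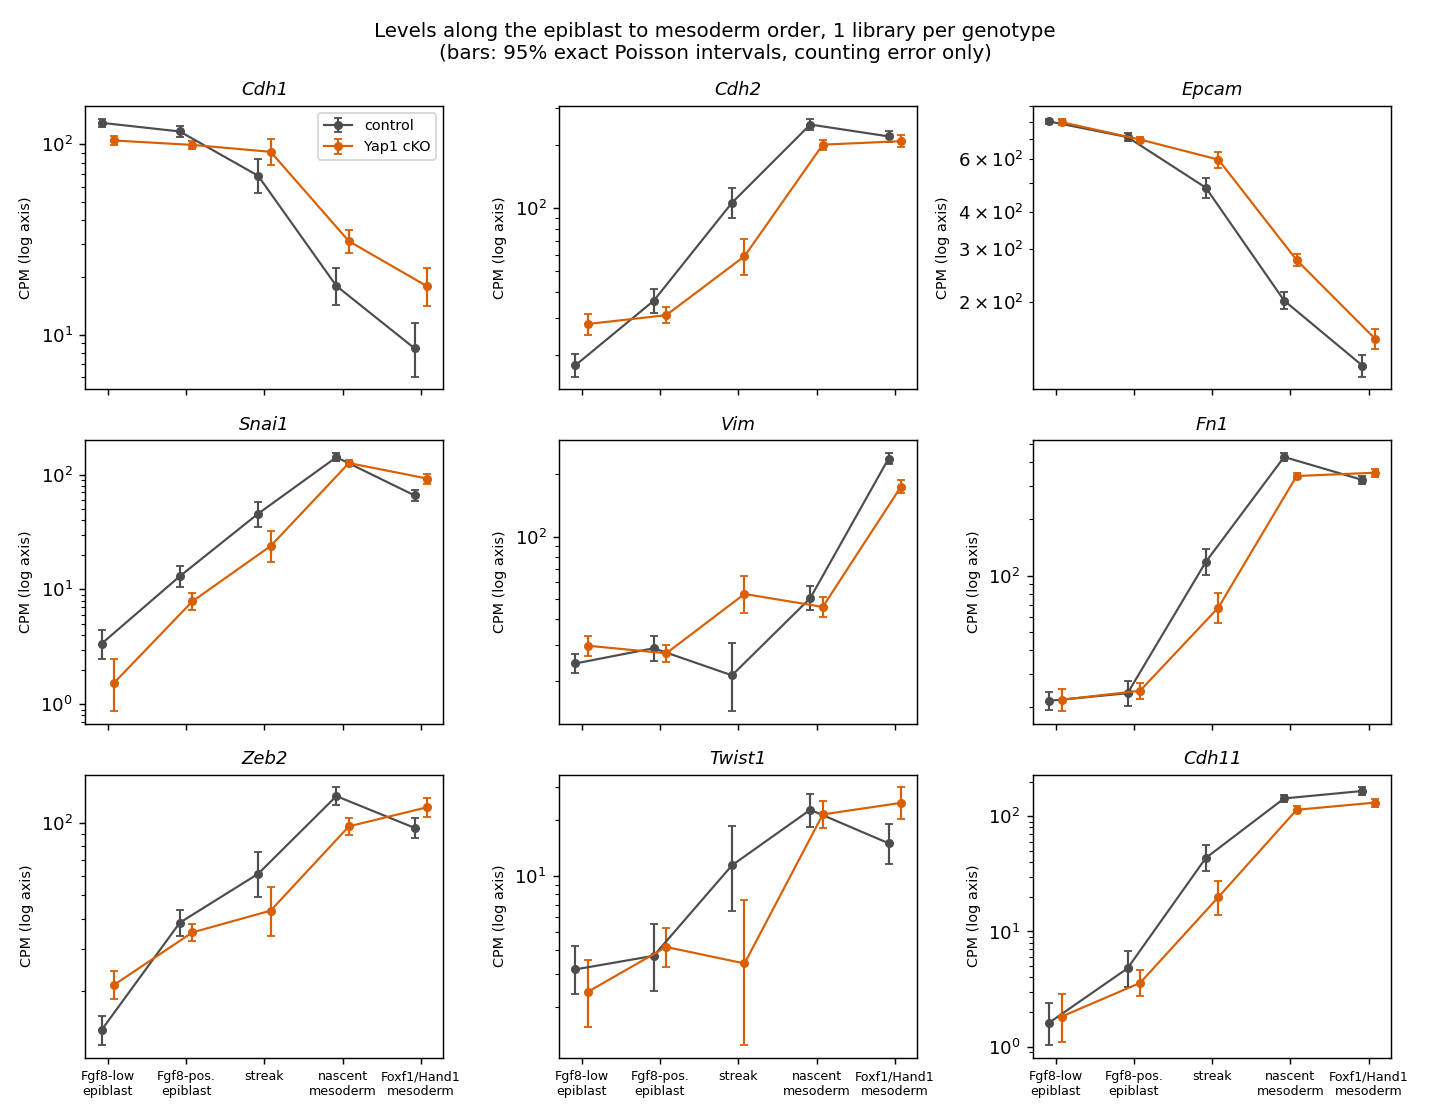
Level of each gene (CPM, log axis) in the 5 populations from *Fgf8*-low epiblast-like to *Foxf1* and *Hand1* mesoderm-like cells, for control (dark grey) and *Yap1* cKO (orange) libraries; bars are 95% exact Poisson intervals and 1 library stands behind each point. *Cdh1* and *Epcam* descend in both libraries and the other genes stand higher in nascent mesoderm-like than in *Fgf8*-low epiblast-like cells. *Cdh1* crosses from 105 against 130 CPM to 17.9 against 8.46 CPM (*Yap1* cKO against control). Neither end of this crossing was kept under every alternative gate.

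Among the transcription factors, *Snai1* covered the widest range. Its control level was 3.37 CPM in *Fgf8*-low epiblast-like, 13.0 CPM in *Fgf8*-positive epiblast-like, 45.6 CPM in streak-like, 141 CPM in nascent mesoderm-like and 65.7 CPM in *Foxf1* and *Hand1* mesoderm-like cells. In the *Yap1* cKO library it was at 1.54, 7.87, 23.8, 126 and 92.2 CPM. Nascent mesoderm-like cells thus held the highest level of *Snai1* in both libraries, 42.0 times (31.4 to 57.2) the *Fgf8*-low epiblast-like level in the control. *Snai1* was also read outside the embryo proper, at 19.1 and 15.5 CPM in extraembryonic ectoderm-like cells, which kept *Cdh1* at 133 and 112 CPM.

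*Zeb2* was at 13.8, 38.5, 61.3, 129 and 95 CPM along the order in the control and at 21.3, 35.1, 43.2, 96.4 and 116 CPM among *Yap1* cKO cells. *Twist1* was the factor with the fewest UMIs. It was at 3.17, 3.74, 11.4, 22.6 and 15.0 CPM in the control and at 2.40, 4.17, 3.41, 21.3 and 24.6 CPM among *Yap1* cKO cells, the streak-like values resting on 16 and 6 UMIs.

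Snai and Zeb factors bind the E-box letters CACCTG, which read CAGGTG on the other strand. Of the 9 genes, 5 had a promoter sequence in the RefSeq tables used (GRCm38.p6, 250 bases before to 50 after each start), and the windows of *Epcam* and *Snai1* held these letters while those of *Vim*, *Zeb2* and *Twist1* did not. The windows of *Epcam* and *Snai1* are shown because they held the letters. The 250 bases before the start follow, on the plus strand, at chr17:87635729-87635978 for *Epcam* and chr2:167537945-167538194 for *Snai1*, with the E-box letters in capitals.
Epcam: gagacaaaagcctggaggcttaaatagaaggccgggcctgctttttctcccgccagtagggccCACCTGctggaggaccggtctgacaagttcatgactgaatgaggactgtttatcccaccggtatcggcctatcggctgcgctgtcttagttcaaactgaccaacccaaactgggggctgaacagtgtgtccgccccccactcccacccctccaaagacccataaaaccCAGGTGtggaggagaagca
Snai1: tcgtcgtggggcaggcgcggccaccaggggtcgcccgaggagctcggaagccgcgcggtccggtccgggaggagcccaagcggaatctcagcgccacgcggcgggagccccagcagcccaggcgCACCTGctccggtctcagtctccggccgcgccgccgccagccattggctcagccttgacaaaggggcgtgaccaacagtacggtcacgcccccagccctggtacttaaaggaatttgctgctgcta
The *Epcam* window held the letters at 187 and 19 bases before the start and the *Snai1* window at 126 bases before it. Of 32851 promoter windows of this length, 20.2% held the letters on either strand and 2.88% held them at least 2 times, so a match is a description of the sequence and not of binding.

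From *Fgf8*-low epiblast-like to streak-like cells, 6 of the 9 genes with at least 50 UMIs in the control were higher past 1.5-fold (*Cdh2*, *Snai1*, *Fn1*, *Zeb2*, *Twist1* and *Cdh11*), where 8.33% of all genes tested were. The other direction held 2 genes, *Cdh1* and *Epcam*, where 15.2% of all genes were lower past 1.5-fold. In the *Yap1* cKO library, 8 genes had enough UMIs and 6 of them were higher (*Cdh2*, *Snai1*, *Vim*, *Fn1*, *Zeb2* and *Cdh11*; 8.49% of all genes), while none was lower (11.4%), *Epcam* standing at 0.750 (0.703 to 0.800). The folds of *Cdh2* were 5.95 (4.83 to 7.29) in the control and 2.10 (1.66 to 2.64) among *Yap1* cKO cells, and those of *Cdh11* were 26.9 (16.5 to 45.1) and 10.9 (6.05 to 20.1). In the control, 97 of the 149 *Cdh2* UMIs of streak-like cells lay in 3 of the 20 cells, which held at least 200 CPM of nascent mesoderm markers. Without these 3 cells the control folds were 2.44 (1.78 to 3.30) for *Cdh2* and 17.6 (10.2 to 31.1) for *Cdh11*, *Twist1* was at 1.85 (0.707 to 4.13), and *Cdh1* and *Epcam* were still lower, at 0.581 (0.465 to 0.718) and 0.661 (0.609 to 0.716). By the nascent mesoderm-like stage the libraries held the same sides of the threshold: 7 genes were higher than in *Fgf8*-low epiblast-like cells and *Cdh1* and *Epcam* were lower in each (all genes tested: 11.4% higher and 17.9% lower in the control, 10.1% and 14.7% among *Yap1* cKO cells).

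The single steps placed these differences. Between the epiblast-like populations, 4 of the 9 genes were higher past 1.5-fold in *Fgf8*-positive cells of each library: *Snai1*, *Zeb2* and *Cdh11* in both, *Cdh2* in the control (3.82% of all genes higher, 4.67% lower) and *Twist1* in *Yap1* cKO cells (3.15% and 4.33%), and none was lower. From *Fgf8*-positive to streak-like cells, 5 of 8 genes were higher in the control (*Cdh2*, *Snai1*, *Fn1*, *Zeb2* and *Cdh11*; 5.43% of all genes) and *Cdh1* was lower (9.68%). Among *Yap1* cKO cells 5 of 9 were higher at that step, with *Vim* in place of *Zeb2* (9.16%), and none was lower (9.2%). From streak-like to nascent mesoderm-like cells, all 7 genes other than *Cdh1* and *Epcam* were higher in the control (9.38%) and those 2 were lower (6.73%). Among *Yap1* cKO cells 6 were higher (7.73%) and the same 2 were lower (8.25%), *Vim* standing at 0.866 (0.685 to 1.10). At the last step *Vim* was the gene that was higher in both libraries (10.5% and 8.12% of all genes), while *Cdh1*, *Epcam*, *Snai1* and *Twist1* were lower in the control (6.13%) and *Cdh1* and *Epcam* among *Yap1* cKO cells (4.94%).

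The share of *Cdh1* among *Cdh1* and *Cdh2* UMIs gives the exchange as a single value per population. It was 87.9% (86.5 to 89.2) in control and 78.9% (76.6 to 81.0) in *Yap1* cKO *Fgf8*-low epiblast-like cells, and 76.3% in both libraries in *Fgf8*-positive ones. In streak-like cells it was 39.2% (33.0 to 45.6) and 60.8% (54.6 to 66.7), in nascent mesoderm-like cells 6.71% (5.35 to 8.30) and 13.4% (11.7 to 15.1), and in *Foxf1* and *Hand1* mesoderm-like cells 3.70% (2.65 to 5.03) and 7.92% (6.31 to 9.78). Blood progenitor-like cells stood at the mesenchymal end, with 0.791% and 0.765%. Axial and endoderm-like cells, which hold notochord and endoderm markers, kept both genes, with shares of 24.5% (22.4 to 26.8) and 34.1% (31.4 to 36.9). The share in control streak-like cells rested on the 3 cells with nascent mesoderm markers, a level of these markers that no *Yap1* cKO streak-like cell reached. Without them it was 63.4% (54.9 to 71.3).

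**Figure D2:**
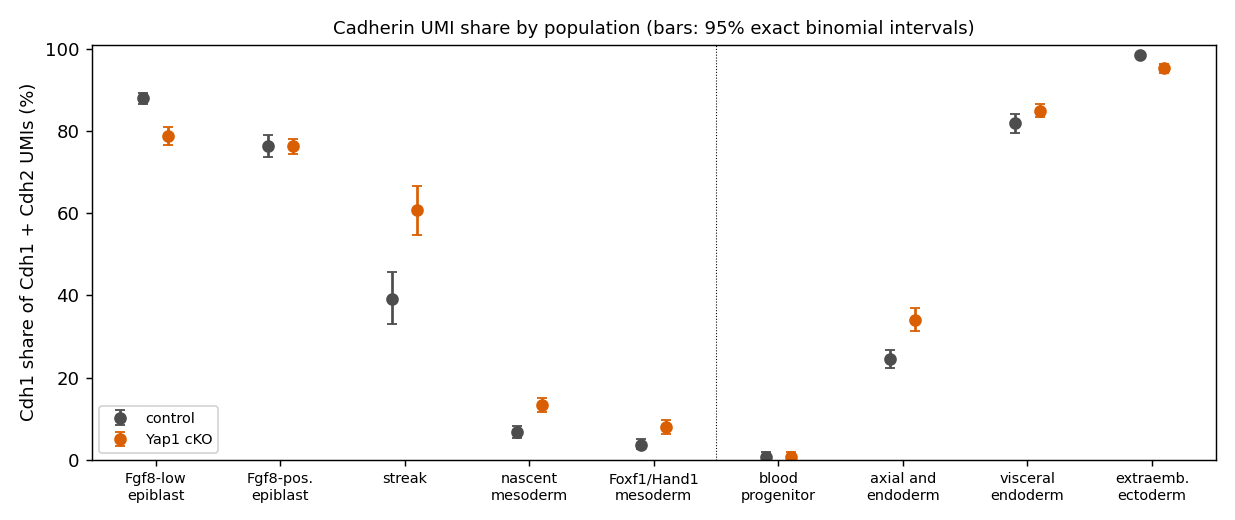
*Cdh1* share of *Cdh1* and *Cdh2* UMIs (%) in 9 populations, control (dark grey) and *Yap1* cKO (orange), with 95% exact binomial intervals; the dotted line parts the epiblast to mesoderm order from the other populations. The share goes from 87.9% and 78.9% in *Fgf8*-low epiblast-like cells to 3.70% and 7.92% in *Foxf1* and *Hand1* mesoderm-like cells, and stands at 0.791% and 0.765% in blood progenitor-like cells.

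Single cells held both cadherins during the exchange, and in other populations too. Cells were thinned to 38000 UMIs each to make depth equal, and shallower cells were left out (1 and 0 streak-like, 0 and 1 nascent mesoderm-like, 2 and 4 *Foxf1* and *Hand1* mesoderm-like and 1 and 1 blood progenitor-like cells of control and *Yap1* cKO). Of those kept, 11 of 19 control streak-like cells (57.9%, 33.5 to 79.7) and 17 of 21 *Yap1* cKO cells (81.0%, 58.1 to 94.6) held UMIs of both *Cdh1* and *Cdh2*. Unthinned, the shares were 80.0% and 95.2%. *Fgf8*-low epiblast-like cells gave thinned shares of 35.3% and 52.8%, and *Fgf8*-positive ones 71.6% and 55.9%. In the control, *Fgf8*-positive cells were thus above streak-like ones. Axial and endoderm-like cells gave 95.5% and 84.8%, and visceral endoderm-like cells 35.6% and 27.5%. Cells too shallow and left out numbered 3 and 3, 0 and 6, 3 and 2, and 7 and 24 in these populations, in turn. In nascent mesoderm-like cells the thinned shares were 23.2% (13.0 to 36.4) and 40.0% (28.9 to 52.0), and in *Foxf1* and *Hand1* mesoderm-like cells 4.92% (1.03 to 13.7) and 22.6% (12.3 to 36.2). Blood progenitor-like cells, of similar median depth (75715 and 77164 UMIs, against 75456 and 79637 in nascent mesoderm-like cells), gave 6.82% and 4.88%. The control value in *Foxf1* and *Hand1* mesoderm-like cells was therefore no higher than that background.

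Between genotypes, 43 of the 45 pairs of gene and population had at least 50 UMIs over both libraries, the exceptions being *Twist1* in streak-like and *Cdh11* in *Fgf8*-low epiblast-like cells. Of these 43, 6 were higher in *Yap1* cKO past 1.5-fold and 6 were lower, where 3.09% and 3.64% of all gene and population pairs were. Of these 12, 11 were no longer past 1.5-fold under at least 1 of the alternative gates or cell selections tried. The exception was *Snai1* in streak-like cells, for which *Yap1* cKO had a single Y-bearing cell, with 0 *Snai1* UMIs. In streak-like cells 1 gene was higher (*Vim*; 4.99% of all genes) and 4 were lower (*Cdh2*, *Snai1*, *Fn1* and *Cdh11*; 3.26%). In *Fgf8*-low epiblast-like cells *Cdh2* and *Zeb2* were higher (1.99% of all genes) and *Snai1* was lower (2.85%). *Snai1* was also the gene lower past 1.5-fold in *Fgf8*-positive epiblast-like cells (4.11%), where none of the 9 was higher (2.33%). In nascent mesoderm-like cells *Cdh1* alone was higher (3.28%) and none was lower (3.14%), and in *Foxf1* and *Hand1* mesoderm-like cells *Cdh1* and *Twist1* were higher (3.86%) and none was lower (4.84%). The median ratio over all genes tested lay between 0.959 and 1.01 in the 5 populations.

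**Figure D3:**
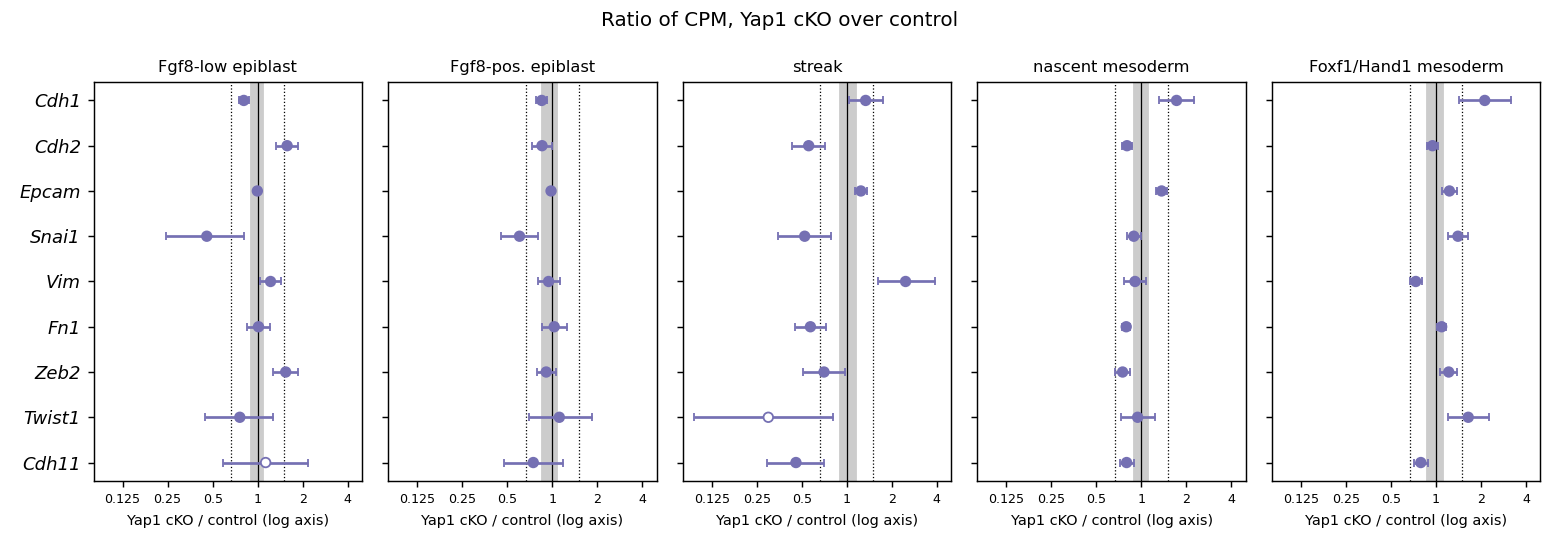
Ratio of CPM, *Yap1* cKO over control (log axis), for the 9 genes in 5 populations, with 95% exact conditional binomial intervals; open circles are pairs under 50 UMIs, dotted lines mark 1.5-fold in either direction and the grey band holds the middle 50% of all genes tested. In streak-like cells *Snai1*, *Cdh2*, *Fn1* and *Cdh11* lie between 0.457 and 0.571, and *Cdh1* passes to the right of 1 from streak-like cells on. Without 3 control cells that held nascent mesoderm markers, the streak-like *Cdh1* ratio was 1.21 (0.930 to 1.59), an interval that includes 1.

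In the epiblast, the differences between genotypes were small for the epithelial genes over all cells. *Cdh1* was 0.807 (0.749 to 0.870) times the control level in *Fgf8*-low and 0.850 (0.780 to 0.927) times in *Fgf8*-positive epiblast-like cells. *Epcam* was at 0.994 (0.967 to 1.02) and 0.981 (0.949 to 1.02). Within Y-bearing cells *Epcam* was lower, at 0.876 (0.824 to 0.931) in *Fgf8*-low and 0.831 (0.786 to 0.878) in *Fgf8*-positive cells. Within *Xist*-bearing cells *Epcam* was at 0.996 (0.961 to 1.03) in *Fgf8*-low and 1.07 (1.02 to 1.12) in *Fgf8*-positive cells. *Cdh2* was at 1.57 (1.33 to 1.86) and *Zeb2* at 1.54 (1.27 to 1.87) in *Fgf8*-low cells, but at 0.854 (0.732 to 0.999) and 0.911 (0.786 to 1.06) in *Fgf8*-positive ones. *Cdh2* UMIs were seen in 54.7% (44.8 to 64.4) of thinned *Yap1* cKO *Fgf8*-low cells against 37.0% (29.8 to 44.7) of control ones, with 7.22% and 5.78% in extraembryonic ectoderm-like cells, where the gene was lowest. The thinned shares of *Fgf8*-low cells (control and *Yap1* cKO) were close for the other genes past 1.5-fold there. They were 32.9% (26.0 to 40.5) and 34.9% (25.9 to 44.8) for *Zeb2*, and 8.09% (4.49 to 13.2) and 8.49% (3.96 to 15.5) for *Snai1*. For these shares 3 and 3 *Fgf8*-low and 7 and 5 extraembryonic ectoderm-like cells were too shallow and left out. The *Zeb2* ratio was 1.37 within *Xist*-bearing cells, 1.31 within Y-bearing cells and 1.45 with embryonic gates at 200 CPM. The *Cdh2* ratio was 1.82 within *Xist*-bearing cells and 1.01 within Y-bearing cells, of which the *Yap1* cKO library had 14 in this population. *Snai1* was at 0.457 (0.243 to 0.815) in *Fgf8*-low cells, from 50 and 16 UMIs, and at 0.604 (0.457 to 0.801) in *Fgf8*-positive cells. The latter was 0.870 (0.610 to 1.26) with the streak gate alone at 50 CPM, 0.769 (0.534 to 1.12) with all embryonic gates there, and 0.673 without the highest cell of each library, none of them past 1.5-fold. With *Pou5f1* at 100 in place of 25 CPM in the epiblast gate, which kept 74 and 38 *Fgf8*-low cells, the *Snai1* ratio there was 0.988 (0.337 to 2.62). With that gate *Cdh1* was at 0.945 (0.830 to 1.07) in *Fgf8*-low and 0.939 (0.815 to 1.08) in *Fgf8*-positive cells, so both intervals included 1. *Epcam* was then at 1.11 (1.06 to 1.16) in *Fgf8*-low cells.

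Streak-like cells were the fewest and had the most genes past 1.5-fold. *Snai1* was at 0.523 (0.346 to 0.784), *Cdh11* at 0.457 (0.293 to 0.704), *Fn1* at 0.571 (0.448 to 0.727) and *Cdh2* at 0.556 (0.429 to 0.719) times the control. *Cdh1* was at 1.34 (1.03 to 1.74), *Epcam* at 1.24 (1.13 to 1.37) and *Vim* at 2.47 (1.62 to 3.86). Single control cells ranged from 0 to 536 CPM of *Cdh2* with a median of 35.3 CPM, and *Yap1* cKO cells from 0 to 310 CPM with a median of 38.9 CPM, so the ranges overlapped up to 310 CPM and 2 control cells, at 509 and 536 CPM, lay above every *Yap1* cKO cell. For *Snai1*, control cells reached 162 CPM (median 26.6) and *Yap1* cKO cells 74.5 CPM (median 18.6). Control streak-like cells also held more RNA of nascent mesoderm markers, 215 against 47.1 CPM, and the ratios were measured again without the 3 control cells named above. Without them the ratio was 1.35 (0.962 to 1.93) for *Cdh2*, on the other side of 1, and 0.697 (0.422 to 1.15) for *Cdh11*, 0.671 (0.517 to 0.873) for *Fn1*, 0.592 (0.382 to 0.916) for *Snai1* and 3.0 (1.85 to 5.07) for *Vim*. *Cdh1* was then at 1.21 (0.930 to 1.59), an interval that includes 1, and *Epcam* at 1.13 (1.02 to 1.25). A single *Yap1* cKO cell held 29.0% of the *Vim* UMIs, and with the highest cell of each library left out the *Vim* ratio was 2.12. With the gates of the 5 embryonic classes at 50 CPM the ratio was 1.15 for *Vim*, 0.812 for *Cdh2*, 0.972 for *Cdh1* and 0.968 for *Epcam*. With these gates at 200 CPM it was 1.01 (0.803 to 1.27) for *Fn1* and 0.749 (0.515 to 1.09) for *Cdh11*. Within *Xist*-bearing cells the *Fn1* ratio was 0.406 (0.312 to 0.527) and the *Cdh1* ratio 1.13 (0.838 to 1.55). Y-bearing cells numbered 10 in the control and 1 in *Yap1* cKO.

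**Figure D4:**
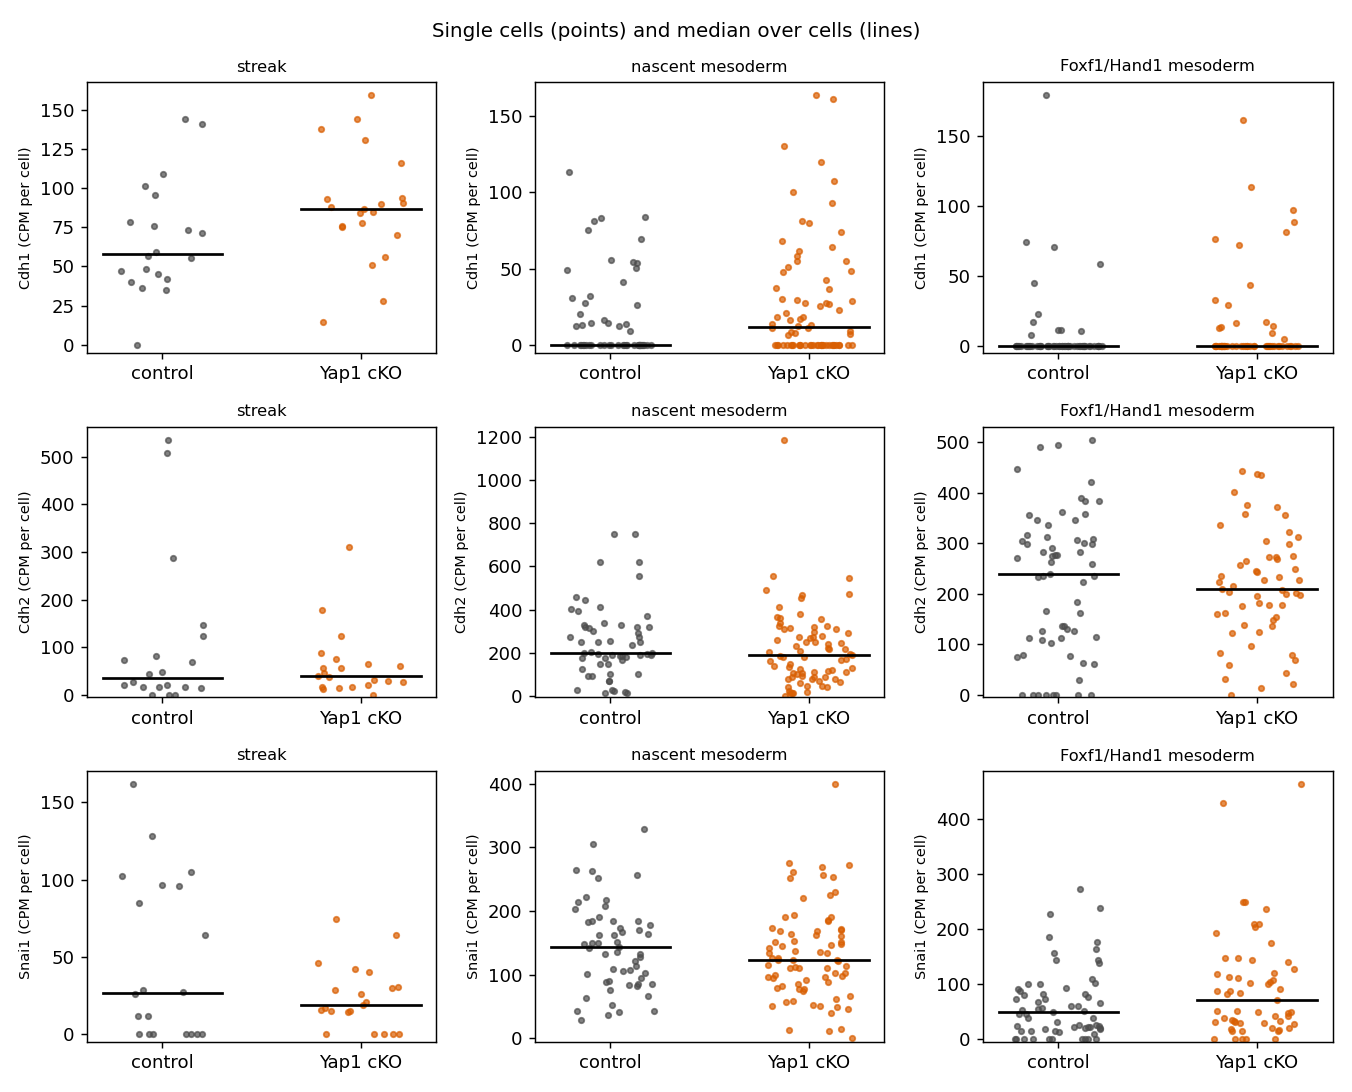
*Cdh1*, *Cdh2* and *Snai1* in single cells (CPM of the cell) of the streak-like, nascent mesoderm-like and *Foxf1* and *Hand1* mesoderm-like populations; points are cells of 1 library per genotype and lines are medians over cells. In streak-like cells 3 control cells lie above 250 CPM of *Cdh2*, as does the highest *Yap1* cKO cell, at 310 CPM. The medians are 35.3 and 38.9 CPM, and many mesoderm cells of both libraries hold no *Cdh1* UMI.

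In nascent mesoderm-like cells, *Cdh1* was at 1.72 (1.32 to 2.25) and *Epcam* at 1.37 (1.26 to 1.48) times the control, while *Cdh2*, *Fn1*, *Zeb2* and *Cdh11* lay between 0.749 and 0.802. With embryonic gates at 50 CPM the *Cdh1* ratio was 1.47 (1.13 to 1.91). Within Y-bearing cells, of which *Yap1* cKO had 5, the *Vim* ratio was 0.276 (0.108 to 0.588) in place of 0.907. *Cdh2* was there at 1.11 (0.908 to 1.36) and *Cdh11* at 1.09 (0.842 to 1.40), on the other side of 1. *Fn1* and *Zeb2* stayed within their main intervals, and *Cdh1* was at 2.33 (1.34 to 3.96). *Snai1* was at 0.889 (0.801 to 0.988) and was found in 100% of control and 97.3% of *Yap1* cKO cells after thinning. *Yap1* cKO cells of this population also held more RNA of the epiblast marker list, 611 against 438 CPM. When cells were parted by their own epiblast list level, *Cdh1* was at 11 and 15.3 CPM (control and *Yap1* cKO) from 200 to 400 CPM of the list, at 33.3 and 23.1 CPM from 400 to 800 CPM, and at 30.5 and 64.5 CPM at 800 CPM or more. The ratios were 1.39 (0.787 to 2.48), 0.692 (0.448 to 1.08) and 2.12 (1.28 to 3.69). The bin of 800 CPM or more held 7 control and 20 *Yap1* cKO cells, and *Cdh2* was at 168 and 97.0 CPM and *Snai1* at 129 and 87.0 CPM there. Within bins, the *Cdh1* interval thus lay above 1 only in the cells that held most epiblast RNA, and in the lower bins it included 1. That bin held 590549 of the 4382715 control UMIs of the population and 1907806 of the 6843869 *Yap1* cKO UMIs. The part of this unequal mix of cells in the *Cdh1* ratio of the population was not tested.

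**Figure D5:**
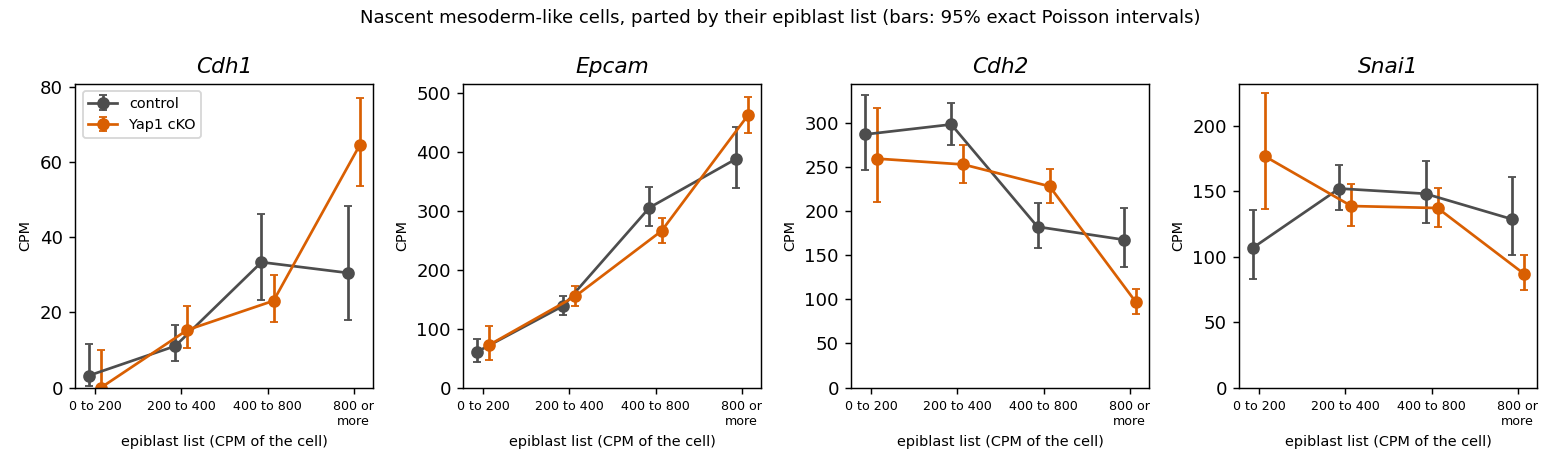
*Cdh1*, *Epcam*, *Cdh2* and *Snai1* (CPM) in nascent mesoderm-like cells parted by their CPM of the epiblast marker list, control (dark grey) and *Yap1* cKO (orange), with 95% exact Poisson intervals. *Cdh1* stands at 30.5 and 64.5 CPM in the cells with 800 CPM or more and the intervals overlap in the other bins.

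In *Foxf1* and *Hand1* mesoderm-like cells, *Cdh1* was at 2.12 (1.43 to 3.20), *Twist1* at 1.64 (1.2 to 2.26), *Snai1* at 1.40 (1.21 to 1.63) and *Vim* at 0.733 (0.668 to 0.805) times the control. The *Cdh1* values rested on 39 and 78 UMIs, of which a single control cell held 43.6%. The ratio was 0.975 with the embryonic gates at 200 CPM, 1.34 within *Xist*-bearing cells and 0.386 within Y-bearing cells (41 control and 12 *Yap1* cKO cells). The *Twist1* ratio was 1.19 with gates at 200 CPM. With these gates *Vim* was at 0.902 (0.825 to 0.985). *Epcam* was at 1.23 (1.10 to 1.38) with the main gates, 1.45 (1.32 to 1.60) at 50 CPM and 0.772 (0.660 to 0.901) at 200 CPM. The *Vim* ratio was 0.692 (0.608 to 0.789) within *Xist*-bearing and 0.561 (0.454 to 0.688) within Y-bearing cells. Within *Xist*-bearing and within Y-bearing cells, *Snai1* was at 1.07 (0.853 to 1.34) and 2.26 (1.76 to 2.89), and *Epcam* at 1.51 (1.26 to 1.83) and 0.742 (0.580 to 0.940). *Yap1* cKO cells of this population held less RNA of its own marker list (1098 against 1589 CPM) and more of the nascent mesoderm list (1052 against 722 CPM). The share of these values in the differences of *Cdh1*, *Snai1* and *Vim* was not tested. Under 200 CPM of the epiblast list (43 control and 35 *Yap1* cKO cells), the *Cdh1* ratio was 0.775 (0.204 to 2.57). From 200 to 400 CPM (15 and 17 cells) it was 0.962 (0.515 to 1.83). The *Cdh1* intervals of the few cells with more also included 1. *Epcam* was at 90.6 and 56.2 CPM (control and *Yap1* cKO) under 200 CPM of the list. It was at 111 and 223 CPM from 200 to 400 CPM, and below the control in cells with more. Among the control cells were 2 with over 1000 CPM of parietal endoderm and giant cell markers, which held all 2051 *Prl3d1* UMIs and no *Cdh1* UMI. Without them no ratio of the 9 genes passed to the other side of 1.5-fold.

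Other EMT genes were read from lists of 22 epithelial genes, 14 transcription factors, 18 mesenchymal genes and 16 genes of junctions and ingression. From *Fgf8*-low epiblast-like to streak-like cells, 13 of 18 epithelial genes with at least 50 UMIs were lower past 1.5-fold in the control and 8 of 17 among *Yap1* cKO cells, where 15.2% and 11.4% of all genes were, with median ratios of 0.507 and 0.668 against 0.986 and 1.01 over all genes. *Crb3*, a polarity gene, was at 0.146 (0.0664 to 0.279) and 0.174 (0.0919 to 0.301), and the tight junction gene *Ocln* at 0.184 and 0.135. Of 6 transcription factors, *Gsc* alone was higher past 1.5-fold in streak-like cells, by 35.1-fold (23.8 to 53.2) and 29.1-fold (16.2 to 56.0). *Sox9* was lower among *Yap1* cKO cells, and the median ratios of the list were 1.18 and 1.14. Of 9 mesenchymal genes, 3 were higher and 1 was lower in each library, with medians of 1.10 and 1.41. Of 16 junction and ingression genes, none was higher and 3 and 1 were lower. Over all genes, 8.33% and 8.49% were higher at this step.

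Between genotypes, *Cldn6* and *Cldn7*, genes of tight junction proteins, were higher among *Yap1* cKO cells in streak-like cells (1.58 and 1.69) and in nascent mesoderm-like cells (2.0, 1.39 to 2.93, and 1.91, 1.41 to 2.63). They made up 2 of 9 epithelial genes past 1.5-fold in streak-like and, with *Rab25*, 3 of 11 in nascent mesoderm-like cells, where 4.99% and 3.28% of all genes were higher, and none of either group was lower. *Id2* encodes an inhibitor of bHLH factors. It was higher among *Yap1* cKO cells in both epiblast-like, the streak-like and the nascent mesoderm-like populations, by 1.58 to 1.80-fold. The shares of all genes higher there were 1.99%, 2.33%, 4.99% and 3.28%. *Gsc*, of the same list, was lower past 1.5-fold in streak-like cells (3.26% of all genes). In *Foxf1* and *Hand1* mesoderm-like cells *Gsc* was higher past 1.5-fold (3.86%). Of 12 mesenchymal genes in nascent mesoderm-like cells, 1 was lower (*Pdgfra*, a receptor gene of mesoderm, at 0.655, 0.568 to 0.755) and 1 was higher (*Lgals1*, at 1.71, 1.38 to 2.14). Of 9 transcription factors there, *Zeb1* (0.649, 0.464 to 0.907) and *Foxc1* (0.604, 0.402 to 0.906) were lower and *Id2* was higher. Of all genes in that population, 3.14% were lower and 3.28% were higher. In *Foxf1* and *Hand1* mesoderm-like cells 1 of 11 epithelial genes was higher past 1.5-fold (3.86% of all genes) and 4 were lower (4.84%), among them the keratin genes, with *Krt18* at 0.245 and *Krt8* at 0.325, and at 0.299 (0.265 to 0.338) and 0.391 (0.354 to 0.431) without the 2 giant cell marker-bearing cells. The *S100a6* ratio there was 0.0465 with those cells and 0.593 (0.292 to 1.16) without them, as they held 316 of its 342 control UMIs. It was among 6 of 14 mesenchymal genes that were lower there with those cells included, and none was higher. Of the 16 junction and ingression genes, 14 had enough UMIs in streak-like and in nascent mesoderm-like cells, and *Dag1* alone was past 1.5-fold, at 2.01 in the former (4.99% of all genes higher) and 0.640 in the latter (3.14% lower). In *Foxf1* and *Hand1* mesoderm-like cells 4 of 15 were lower, among them *Jup* (0.486), *Ezr* (0.505) and *Afdn* (0.560), and without the 2 giant cell marker-bearing cells these stood at 0.779, 0.760 and 0.578. Apart from leaving out those 2 cells, the ratios of list genes between genotypes were not measured again under the alternatives used for the 9 genes.

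Within streak-like cells, the interval of the *Cdh1* ratio between cells with and without a *Snai1* UMI included 1 in both libraries. After thinning, 10 control cells held a *Snai1* UMI and 9 did not, with *Cdh1* at 65.3 and 71.5 CPM and a ratio of 0.913 (0.596 to 1.40). In the *Yap1* cKO library 11 cells held 1 and 10 did not, with *Cdh1* at 89.8 and 93.1 CPM and a ratio of 0.965 (0.699 to 1.33). In *Foxf1* and *Hand1* mesoderm-like cells *Cdh1* was at 4.01 CPM in control cells with and 19.6 CPM in those without a *Snai1* UMI, a ratio of 0.204 (0.0963 to 0.412), and in *Yap1* cKO cells at 17.7 and 22.4 CPM, a ratio of 0.788 (0.449 to 1.46). A single control cell without a *Snai1* UMI held 17 of the 26 *Cdh1* UMIs of its side, and without it the level there was 7.32 CPM and the ratio 0.548 (0.217 to 1.45). *Epcam* gave ratios of 0.672 (0.564 to 0.801) and 0.440 (0.372 to 0.523) in the same cells, and 0.822 (0.680 to 0.998) and 0.390 (0.328 to 0.465) without its highest cell in each library. In this population, 2 control cells with 400 to 800 CPM of the epiblast list held 83 *Epcam*, 0 *Cdh2* and 1 *Snai1* UMIs. With 800 CPM or more, 1 control cell held 49, 0 and 1, of 565 *Epcam* UMIs in the population. The part of such cells in the control ratios was not tested.

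Outside the order, *Cdh1* was at 133 and 112 CPM in extraembryonic ectoderm-like, 124 and 96.1 CPM in visceral endoderm-like and 98.3 and 95.5 CPM in axial and endoderm-like cells (control and *Yap1* cKO), and at 1.07 and 1.32 CPM in blood progenitor-like cells. In the control, the intervals of neighbours overlapped from extraembryonic ectoderm-like through *Fgf8*-low epiblast-like and visceral endoderm-like to *Fgf8*-positive epiblast-like cells, and no further down the order of levels. Among *Yap1* cKO cells they overlapped from extraembryonic ectoderm-like down to streak-like cells, and no further. *Cdh2* was highest in axial and endoderm-like cells of the control (302 CPM, against 185 CPM among *Yap1* cKO cells, a ratio of 0.611, 0.557 to 0.670). In these cells the nascent mesoderm list was at 757 and 352 CPM, and its part in the *Cdh2* ratio was not tested. A single *Yap1* cKO cell held all 3175 *Hbb-bs* UMIs, a gene of adult globin, and without it the *Cdh2* ratio was 0.609 (0.554 to 0.668). *Fn1* reached 413 and 425 CPM and *Zeb2* 201 and 172 CPM in blood progenitor-like cells. In visceral endoderm-like cells the ratio to control was 0.704 (0.672 to 0.737) for *Epcam* and 0.620 (0.517 to 0.745) for *Cdh2*. It was 1.14 (1.05 to 1.23) for *Fn1* there.

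Over the 18 levels of 9 populations in 2 libraries, the genes whose pattern was most like each EMT gene were named by Pearson's r of log2(CPM + 1) among 10767 genes. *Esrp1*, which encodes an epithelial splicing regulator, was nearest to both *Cdh1* and *Epcam* (r = 0.957 each), followed for *Cdh1* by *Cldn6* (0.948) and *Spint2* (0.944). *Phldb2* was nearest to *Fn1* (0.959), *Phc2* to *Snai1* (0.942), *Smad1* to *Twist1* (0.950), *Plcl2* to *Zeb2* (0.972), *Plxna4* to *Cdh11* (0.967), *Pip4k2a* to *Cdh2* (0.966) and *Tmem50a* to *Vim* (0.937). The points share libraries and populations, so these values are a description.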

How the data were processed

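E7 embryos were pooled by genotype (4 control, 3 *Yap1* cKO) and each pool gave 1 10x 3′ library. The authors ran Cell Ranger 7.1.0 with mm10, per the submitters' processing notes, and the deposited values are raw UMI counts per gene and barcode. The libraries held 70573418 and 87937858 UMIs in 1829 and 1897 barcodes. Barcodes with at least 5000 genes and at most 10% mitochondrial UMIs were kept (15974 to 317876 and 17169 to 324147 UMIs). Scrublet (scanpy 1.11.5) called 1 and 4 of them, which were left in, and 2 barcodes occurred in both libraries, none of them used. SoupX, which the study ran, was not repeated.

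Each barcode went to the first gate it passed, needing 3 or more UMIs: visceral endoderm genes (*Ttr*, *Afp*, *Apoa1*, *Rbp4*, *Apoa4*) at 1000 CPM, with 200 to 1000 CPM left unassigned; then at 100 CPM *Elf5*, *Wnt7b*, *Rhox6*, *Rhox9*; *Tal1*, *Etv2*, *Runx1*; *Foxa2*, *Noto*, *Chrd*, *Shh*, *Sox17*; *Foxf1*, *Hand1*; *Mesp1*, *Mesp2*; *T*, *Mixl1*; and last *Pou5f1* at 25 CPM, parted at 50 CPM of *Fgf8*. The *Pou5f1* limit was lowered from 100 CPM after the cells were seen. Members, lists and gates were chosen with earlier results of these data known.

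UMIs were summed per population and library and scaled to CPM. With 1 library per genotype no test was made: a gene counts as higher or lower past 1.5-fold, with at least 50 UMIs over both groups, gate genes left out. Intervals are exact at 95% (scipy 1.17.1): Poisson for levels, Clopper-Pearson for shares, and a binomial interval given both counts for ratios. Gates, depth, doublets, scaling and sex of cells were varied, and further alternatives were chosen after seeing the data. Leaving out the called doublets removed no cell from the populations of the order. From other lists, up to 3 highest and 3 lowest ratios past 1.5-fold could be named. For likeness, 3 genes per member were ranked among genes with at least 500 UMIs. The ratio and its interval were tested on simulated data. Promoters are from RefSeq (GRCm38.p6).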

Additional observations from a re-analysis of the deposited data

Results flagged for a closer look

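*Cdh2* was higher in *Yap1* cKO in *Fgf8*-low epiblast-like cells (ratio 1.57) and lower in streak-like cells (0.556), past 1.5-fold in opposite directions in 2 populations. Without 3 control streak-like cells that held nascent mesoderm markers the streak-like ratio was 1.35, and within Y-bearing cells the *Fgf8*-low ratio was 1.01, so the contrast was not kept under either. *Vim* was at 0.876 times the *Fgf8*-low epiblast-like level in control streak-like cells and at 1.78 times in *Yap1* cKO ones. Neither difference was tested, since there was 1 library per genotype.

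Extraembryonic ectoderm-like cells, which lie outside the epiblast to mesoderm order, held more UMIs of some mesenchymal genes in the *Yap1* cKO library: the ratio to control was 22.6 for *Vim* (5 and 86 UMIs), 6.44 for *Cdh11* (11 and 54), 2.66 for *Cdh2* (35 and 71) and 2.22 for *Fn1* (59 and 100). Only genes past 1.5-fold with enough UMIs are listed. *Vim* and *Cdh11* reached the minimum of UMIs mainly through the *Yap1* cKO library. The share of all genes past 1.5-fold was not measured in this population, so these ratios have no background beside them. The 5 highest *Yap1* cKO cells held 93% of the *Vim* UMIs and 85.2% of the *Cdh11* UMIs. Over *Vim*, *Zeb2*, *Cdh11*, *Cdh2* and *Fn1* together, 6 *Yap1* cKO cells and 0 control cells held 10 or more UMIs, 287 of the 350 in that population. These 6 cells held 125 *Elf5*, 137 *Hand1*, 29 *Foxf1* and 93 *Cdh1* UMIs, at a median of 166492 UMIs per cell against 107983 over the population. The part of mixed barcodes in these values was not tested.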

How the results depend on the processing

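Of 720 recomputed ratios of a gene in a population, 656 stayed within their main interval, 58 left it, and 6 that were past 1.5-fold as reported passed to the other side of 1. The causes were not tested. The 656 included ratios that could not move, since some settings left the cells of a population unchanged. Leaving out barcodes called by scrublet removed no cell of the order, so its 45 ratios tested nothing. Leaving out giant cell or nascent marker-bearing cells left most populations unchanged. So did the *Pou5f1* gate and the streak gate alone. The ratios on the other side of 1 with embryonic gates at 200 CPM were *Fn1* in streak-like cells (1.01) and *Cdh1* in *Foxf1* and *Hand1* mesoderm-like cells (0.975). Within Y-bearing cells they were *Vim* (0) and *Fn1* (1.18) in streak-like cells, where the *Yap1* cKO library had 1 cell, and *Cdh1* in *Foxf1* and *Hand1* mesoderm-like cells (0.386). Without streak-like cells of at least 200 CPM of nascent mesoderm markers, an alternative chosen after seeing the data, it was *Cdh2* (1.35), and 3 pairs were lower in *Yap1* cKO in place of 6. With gates at 200 CPM, and within Y-bearing cells, 3 pairs were higher in place of 6.

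From *Fgf8*-low epiblast-like to streak-like cells, the control count of genes lower was 0 with gates at 50 CPM and 1 within *Xist*-bearing cells, in place of 2. In Y-bearing *Yap1* cKO cells, 0 genes were higher and 1 was lower. That count compared 1 streak-like cell with 14 *Fgf8*-low epiblast-like cells, too few to describe the step. The share of all genes was not measured there. The *Cdh1* share in control streak-like cells was 62.6% with gates at 50 CPM, 32.3% at 200 CPM, 31.2% in Y-bearing cells, 47.5% with the streak gate alone at 50 CPM and 63.4% without the nascent marker-bearing cells, and in *Yap1* cKO ones 52.1% at 200 CPM. In nascent mesoderm-like cells it was 9.45% and 15.8% at 50 CPM, 4.94% and 11% at 200 CPM, and 15.4% in Y-bearing *Yap1* cKO cells. Without thinning, 80.0% and 95.2% of streak-like cells held both cadherins. Of the 12 ratios past 1.5-fold, 11 were not so under at least 1 alternative. No paired analysis was possible because each genotype had 1 library. Counts of about 20 streak-like cells limit every value there.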
